A study of Mus musculus with 16 samples.

Results

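Genes that are linked to the activity of olfactory sensory neurons or to calcium signalling were followed through all 16 arrays of the series: S100a5, Pcp4l1, Lrrc3b and Rasgrp4. They were taken by gene symbol, and each was measured by 1 array feature, so the account covers 4 of 28846 features and 4 of 19505 genes. The cells came from the olfactory mucosa of S100a5-tauGFP mice on a C57BL/6 background, and every group carried this fluorescent reporter, the controls included. The 24 mice were of both sexes, 7 to 12 weeks old, and lived singly in clean-air chambers for 40 h. From 26 h on, they received pulses of 10 s every 20 min, of whiskey lactone (odor) or, as vehicle, filtered air. Whiskey lactone is an aroma compound of oak-aged drinks. Each pool held the cells of 3 mice and was sorted by fluorescence into 2 fractions, which gave 4 pools per treatment and 4 arrays in each of the groups vehicle GFP+, vehicle GFP-, odor GFP+ and odor GFP-. The labels used here do not say how the reporter was inserted next to or into S100a5, nor whether the mice carried 1 or 2 copies, which limits S100a5 itself as a readout.

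The labels contradict each other on the fractions. The cell type field names every array the opposite way from its title, in 16 of 16 arrays. Groups are named by title here, and a fraction difference is the array titled GFP+ minus the array titled GFP- of the same pool. S100a5, the gene behind the reporter, was higher in the arrays titled GFP-, which are those the cell type field calls GFP+. Grouping by the cell type field would turn the sign of every fraction difference, whereas an odor minus vehicle difference would keep its sign under another fraction name.

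When an odorant binds its receptor on the cilia of a sensory neuron, cyclic AMP opens a cation channel and calcium enters the cell. Neurons that are often active change the transcription of a set of genes, and S100a5 is the best known of those that rise with activity, which is why its reporter is used to sort responding neurons. S100a5 encodes a small EF-hand protein of the S100 family that binds calcium. Pcp4l1 encodes a relative of Pcp4, a short peptide that binds calmodulin. Lrrc3b encodes a membrane protein with leucine-rich repeats. Rasgrp4 encodes an exchange factor that loads Ras with GTP, responds to diacylglycerol and is known above all from mast cells.

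S100a5, Pcp4l1 and Lrrc3b moved together between the fractions, so the sequences around a RefSeq start site of each are shown for comparison. Each run covers 250 bases before to 50 bases after the RefSeq start (assembly GRCm38.p6), read along the gene's own strand. For S100a5 that start lies inside the gene span of the table used (chr3:90606480-90611784), at some distance from the span's 5′ end, so its window is not upstream of the whole gene. Capitals mark the only match found to any of the 6 motifs searched, a TATAAA box whose first letter is the start base (position 1 from the start) of Pcp4l1. S100a5 is read from chr3:90608272-90608571 on the plus strand, Pcp4l1 from chr1:171196219-171196518 on the minus strand and Lrrc3b from chr14:15438938-15439237 on the minus strand.
S100a5: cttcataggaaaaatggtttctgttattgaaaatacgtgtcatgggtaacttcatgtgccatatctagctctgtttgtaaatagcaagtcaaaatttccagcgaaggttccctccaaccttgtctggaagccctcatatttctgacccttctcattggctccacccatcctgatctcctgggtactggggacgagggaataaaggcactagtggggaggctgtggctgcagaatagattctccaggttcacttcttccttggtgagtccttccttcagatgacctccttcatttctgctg
Pcp4l1: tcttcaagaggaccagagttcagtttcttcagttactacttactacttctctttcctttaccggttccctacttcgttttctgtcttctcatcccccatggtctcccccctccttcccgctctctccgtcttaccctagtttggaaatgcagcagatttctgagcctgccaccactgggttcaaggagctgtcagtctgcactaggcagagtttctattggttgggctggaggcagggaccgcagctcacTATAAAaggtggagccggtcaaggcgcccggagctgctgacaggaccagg
Lrrc3b: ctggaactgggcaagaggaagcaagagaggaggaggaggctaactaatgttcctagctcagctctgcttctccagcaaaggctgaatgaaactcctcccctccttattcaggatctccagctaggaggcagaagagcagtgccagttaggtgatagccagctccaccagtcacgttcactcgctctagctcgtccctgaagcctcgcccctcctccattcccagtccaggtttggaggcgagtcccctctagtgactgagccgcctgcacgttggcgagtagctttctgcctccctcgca
The motifs were searched on both strands: the full cyclic AMP response element TGACGTCA, its core TGACG, the AP-1 site TGACTCA, the core CCCNNGGG of the Olf/Ebf site, TATAAA and the homeodomain site TAATTA. The full element contains the core, and TGACTCA overlaps neither of them. Among all 32851 promoter windows of this length, 1.79% held the full element, 20.8% its core, 5.20% the AP-1 site, 13.7% the Olf/Ebf core, 13.6% TATAAA and 5.29% TAATTA. None of the 3 windows held the cyclic AMP, AP-1, Olf/Ebf or homeodomain letters, which says only that these letters are not in this stretch. The GC content was 46.3% for S100a5, 53.3% for Pcp4l1 and 57.0% for Lrrc3b, beside a median of 52.7% over all windows.

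The median over all genes lay between 6.95 and 7.13 on the log2 scale in the 8 arrays titled GFP+ and between 6.62 and 6.70 in the 8 titled GFP-, so the fractions did not overlap in overall signal. The medians of the negative control features lay between 4.98 and 5.59, and the 95th percentiles of those controls between 9.09 and 10.1. With 4 arrays a group, precision is limited by their number. S100a5 was bright in all 16 arrays (97.9 to 99.6 as a percentile of the genes of the array), and so were Pcp4l1 (91.2 to 99.1) and Lrrc3b (85.1 to 98.0). These genes exceeded the 95th percentile of the negative controls in all 16 arrays. Rasgrp4 lay between the percentiles 62.0 and 75.6 and exceeded that control level in 9 of 16 arrays, so its values are close to what unspecific signal gives.

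S100a5 (chromosome 3, 90606480 to 90611784) was lower in the arrays titled GFP+ in either treatment, 2.35-fold in vehicle and 2.53-fold in odor. In the vehicle pools 1 to 4 its log2 signal was 16.59, 16.62, 16.60 and 16.23 in the arrays titled GFP- and 15.15, 15.31, 15.64 and 15.01 in those titled GFP+. In the odor pools 1 to 4 it was 16.61, 16.55, 16.74 and 16.42 in the arrays titled GFP- and 14.93, 15.24, 15.64 and 15.15 in those titled GFP+. All 8 arrays titled GFP- were thus above all 8 titled GFP+. The group means were 16.51 ± 0.19 and 15.28 ± 0.27 in vehicle and 16.58 ± 0.13 and 15.24 ± 0.30 in odor (GFP- then GFP+, SD, n = 4). The fraction difference on the log2 scale was -1.23 ± 0.09 (SE) in vehicle and -1.34 ± 0.09 in odor pools (limma, adjusted p = 4.78e-07 and 2.07e-07). The fractions were sorted on the S100a5 reporter, so a difference in S100a5 between them was built into the design. Its p-values are therefore no independent evidence. S100a5 remained a bright gene in the dimmer fraction, where its lowest array still stood at 14.93.

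Pcp4l1 (chromosome 1, 171173264 to 171196268) had the largest fraction difference of the 4 genes and was 4.27-fold lower in the arrays titled GFP+ in vehicle and 3.71-fold lower in odor. In the vehicle pools its log2 signal was 15.06, 15.42, 15.98 and 14.95 in the arrays titled GFP- and 13.02, 13.57, 13.66 and 12.78 in those titled GFP+. In the odor pools it was 15.32, 15.45, 15.78 and 15.17 against 13.30, 13.88, 13.78 and 13.19. The lowest array titled GFP-, at 14.95, was above the highest titled GFP+, at 13.88, so the fractions did not overlap. The means were 15.35 ± 0.46 and 13.26 ± 0.43 in vehicle and 15.43 ± 0.26 and 13.54 ± 0.34 in odor (GFP- then GFP+, SD, n = 4). The differences of -2.10 ± 0.10 and -1.89 ± 0.10 passed the threshold (limma, adjusted p = 3.69e-09 and 9.29e-09).

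Lrrc3b (chromosome 14, 15357515 to 15438987) was 3.23-fold lower in the arrays titled GFP+ in vehicle and 3.12-fold lower in odor, and its odor arrays lay higher than its vehicle arrays on average in either fraction. In the vehicle pools its log2 signal was 13.67, 13.58, 14.26 and 14.01 in the arrays titled GFP- and 11.74, 12.02, 12.78 and 12.23 in those titled GFP+. In the odor pools it was 14.47, 14.93, 14.97 and 14.55 against 12.50, 13.39, 13.29 and 13.17. Within each treatment the fractions did not overlap, and the odor arrays titled GFP- were the 4 highest of all 16. The means were 13.88 ± 0.32 and 12.19 ± 0.44 in vehicle and 14.73 ± 0.26 and 13.09 ± 0.40 in odor (GFP- then GFP+, SD, n = 4). The fraction differences were -1.69 ± 0.11 and -1.64 ± 0.11 (limma, adjusted p = 7.22e-08 and 8.77e-08).

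Rasgrp4 (chromosome 7, 29134607 to 29153961) showed no fraction difference beyond its spread. In the vehicle pools its log2 signal was 9.55, 9.02, 10.21 and 8.79 in the arrays titled GFP- and 9.66, 8.66, 9.66 and 9.57 in those titled GFP+. In the odor pools it was 9.85, 9.42, 10.53 and 9.83 against 10.14, 9.47, 10.44 and 8.81. The fractions overlapped throughout, and the means were 9.39 ± 0.63 and 9.39 ± 0.49 in vehicle and 9.91 ± 0.46 and 9.71 ± 0.73 in odor (GFP- then GFP+, SD, n = 4). The differences were -0.01 (95% interval -0.50 to 0.49, limma, adjusted p = 0.989) and -0.19 (-0.69 to 0.31, adjusted p = 0.559). These intervals leave out differences of the size seen for the other genes, but they do not show equal levels. The direction of the Rasgrp4 value turned with the scaling of the arrays, without vehicle pool 2 or 3 (0.11 and 0.18) and without odor pool 4 (0.083). In the odor pools it passed the threshold after median centring (-0.57, adjusted p = 0.0352) and after centring on housekeeping genes (-0.68, adjusted p = 0.0178).

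**Figure D1:**
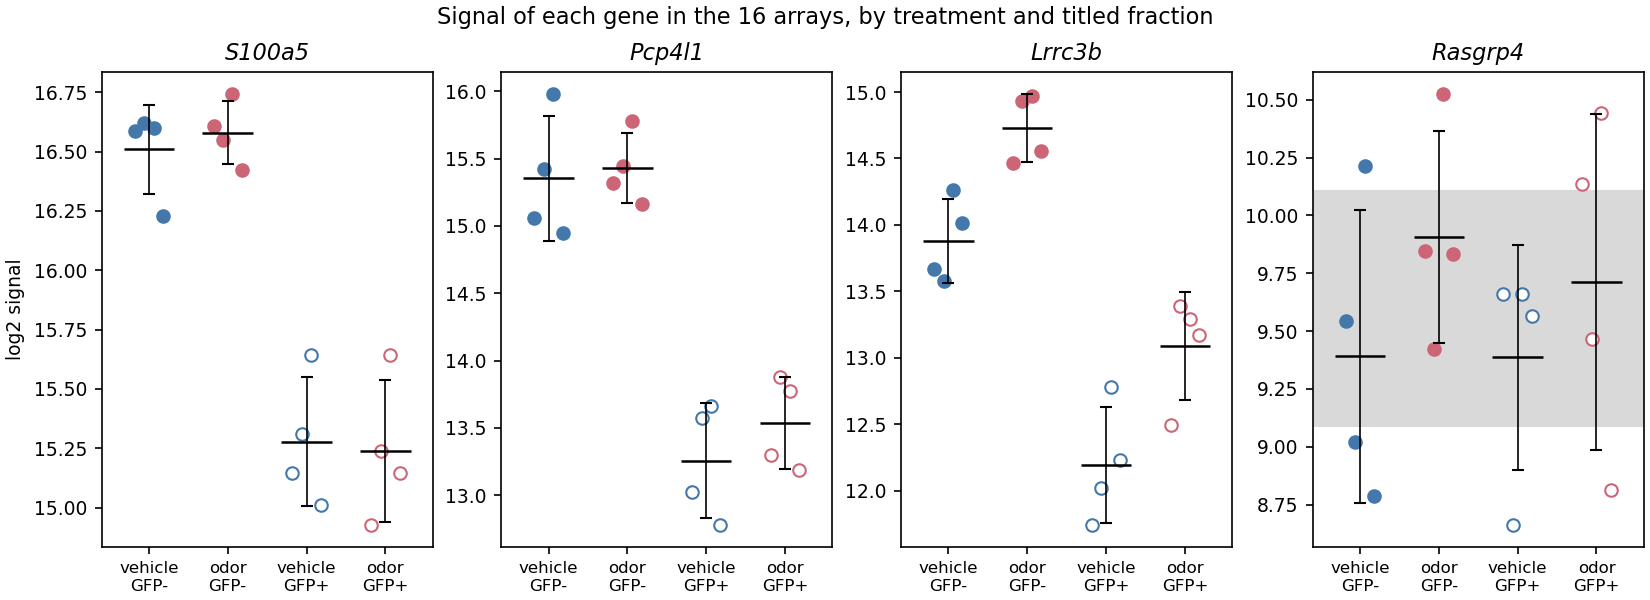
Log2 signal (y axis, a separate range in each panel) of S100a5, Pcp4l1, Lrrc3b and Rasgrp4 in each of the 16 arrays, by treatment and titled fraction; filled points are arrays titled GFP-, open points those titled GFP+, bars the mean and SD of 4, and the grey band the range over arrays of the 95th percentile of the negative controls (9.09 to 10.1). The open points lie below the filled points for the first 3 genes, the odor points of Lrrc3b lie above the vehicle points in mean in either fraction, and most Rasgrp4 points lie in or below the band.

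Calls between the fractions were common, and those of these genes were large in size. Of 19505 genes tested in the vehicle pools, 26% passed the threshold in either direction and 13.6% as lower in the arrays titled GFP+; in the odor pools the shares were 27.5% and 14.7%. Of the 4 genes, 3 passed as lower in each treatment, S100a5 among them, on whose reporter the cells were sorted. The 4 genes were chosen with earlier results of these data known, so this count tests nothing against those shares. By the size of the difference, odorant receptors held most of the lowest places, and among the 18078 genes that are not chemoreceptors, ranked from the lowest difference, Pcp4l1 was at place 2 in vehicle and 5 in odor, Lrrc3b at 7 and 9, and S100a5 at 37 and 34. Rasgrp4 was at 12025 and 7762. The gene behind the reporter was thus not the gene with the largest difference between the fractions that its reporter defined. In sorted cells, fewer cells of a type and less RNA per cell cannot be told apart, and this holds for every fraction difference given here.

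Within single pools, the fraction differences kept the same order in every pool. Pcp4l1 differed by -2.04, -1.85, -2.32 and -2.17 in vehicle pools 1 to 4 and by -2.03, -1.57, -2.00 and -1.98 in odor pools 1 to 4. Lrrc3b differed by -1.93, -1.56, -1.49 and -1.79, and by -1.97, -1.54, -1.67 and -1.38. S100a5 differed by -1.44, -1.31, -0.96 and -1.22, and by -1.68, -1.31, -1.10 and -1.27. In 8 of 8 pools Pcp4l1 had the lowest value, followed by Lrrc3b, S100a5 and Rasgrp4. Rasgrp4 was at 0.11, -0.36, -0.55 and 0.78 in vehicle and 0.29, 0.04, -0.08 and -1.02 in odor. For S100a5 the pool numbered 1 had the lowest and the pool numbered 3 the highest value in either treatment.

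**Figure D2:**
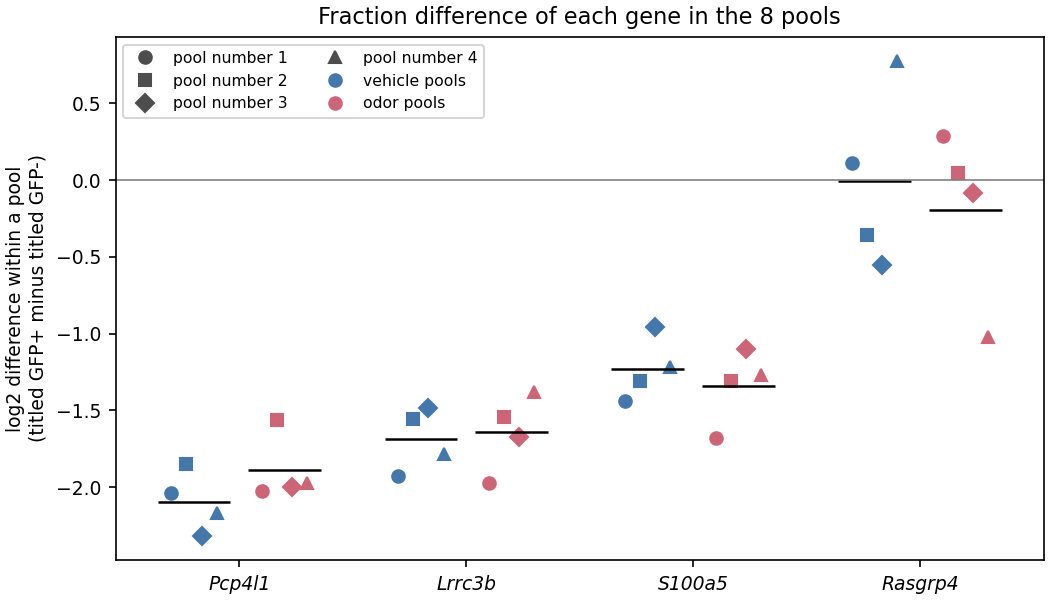
Log2 difference between the array titled GFP+ and the array titled GFP- of the same pool (y axis) for Pcp4l1, Lrrc3b, S100a5 and Rasgrp4, with 4 vehicle pools (blue) and 4 odor pools (red) per gene, pool numbers as symbols and the mean of 4 as a bar. All 8 values are below 0 for the first 3 genes, from -2.32 for Pcp4l1 to -0.96 for S100a5, and the Rasgrp4 values lie on either side of 0.

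Whether odor changed the parting of these genes was tested as the difference of the fraction differences, odor minus vehicle. It was -0.11 (95% interval -0.40 to 0.18) for S100a5, 0.20 (-0.09 to 0.50) for Pcp4l1, 0.05 (-0.28 to 0.37) for Lrrc3b and -0.19 (-0.89 to 0.52) for Rasgrp4. No member passed the threshold (limma, adjusted p = 0.999 for each), and of all genes 0.00513% did. For S100a5, Pcp4l1 and Lrrc3b the intervals leave room for a change of up to 0.40, 0.50 and 0.37 on the log2 scale, which is smaller than their fraction differences.

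Inside a fraction, Lrrc3b had the largest difference between odor and vehicle of the 4 genes. Its odor minus vehicle value was 0.85 ± 0.21 (SE, 95% interval 0.41 to 1.29) in the arrays titled GFP- and 0.90 ± 0.21 (0.46 to 1.33) in those titled GFP+, a fold of 1.80 and 1.86. Pools of the same number differed by 0.80, 1.35, 0.71 and 0.54 in the arrays titled GFP- and by 0.76, 1.37, 0.52 and 0.94 in those titled GFP+. Odor was therefore higher in 4 of 4 numbers in each fraction. The lowest odor array titled GFP- was 0.21 above the highest vehicle array, and in the arrays titled GFP+ the groups overlapped through odor pool 1 and vehicle pool 3. The summed log2 signal of 18 mature neuron genes overlapped between odor and vehicle, at 21.51 to 21.55 against 21.50 to 21.54 in the arrays titled GFP- and at 21.29 to 21.42 against 21.32 to 21.39 in those titled GFP+.

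In the fit across all genes this did not pass the threshold (limma, adjusted p = 0.466 in the arrays titled GFP- and 0.667 in those titled GFP+). By its unadjusted p of 0.000677 and 0.00041, Lrrc3b was at place 25 and 12 of 19505 genes. In the arrays titled GFP- no gene passed (0%), although 1147 had an unadjusted p under 0.05, and in those titled GFP+ 1 gene did (0.00513%) and 951 had an unadjusted p under 0.05. Same-numbered pools of the 2 treatments correlated in their deviations from the group means in the arrays titled GFP-, with r between 0.198 and 0.279 in 4 of 4 pairs, so the numbers were taken to pair the pools there. This pairing is not in the labels and was inferred from these same data, so calls made with it rest on that inference. The 2 fractions of the same odor pool correlated less, at 0.116 to 0.192, and what the shared numbers mark was not tested. With the replicate number as a block, Lrrc3b passed in the arrays titled GFP- (0.85 ± 0.14, limma, adjusted p = 0.0311), where 14 of 19505 genes did (0.0718%). An exact two-sided permutation test of the 4 odor against the 4 vehicle arrays, chosen after the values were seen, gave p = 0.0286 in the arrays titled GFP-, the smallest that 70 regroupings can give, and p = 0.0571 in those titled GFP+. It was run for the 4 genes in the 2 fractions, which makes 8 tests, and no p was adjusted over them.

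S100a5 did not differ from vehicle beyond its spread after odor. Its difference was 0.07 (95% interval -0.22 to 0.36) in the arrays titled GFP- and -0.04 (-0.33 to 0.25) in those titled GFP+ (limma, adjusted p = 0.981 and 1.00; exact permutation p = 0.657 and 0.829). Pcp4l1 differed by 0.08 (-0.38 to 0.53) and 0.28 (-0.17 to 0.73; adjusted p = 0.993 and 1.00; exact permutation p = 0.743 and 0.343). Its odor arrays titled GFP+ were higher in 4 of 4 numbers. Rasgrp4 differed by 0.52 (-0.21 to 1.24) and 0.33 (-0.39 to 1.05; adjusted p = 0.916 and 1.00; exact permutation p = 0.229 and 0.514), and with its values close to the control level this cannot be read as a change. The upper bounds leave out an odor difference in S100a5 of the size seen in Lrrc3b in either fraction.

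**Figure D3:**
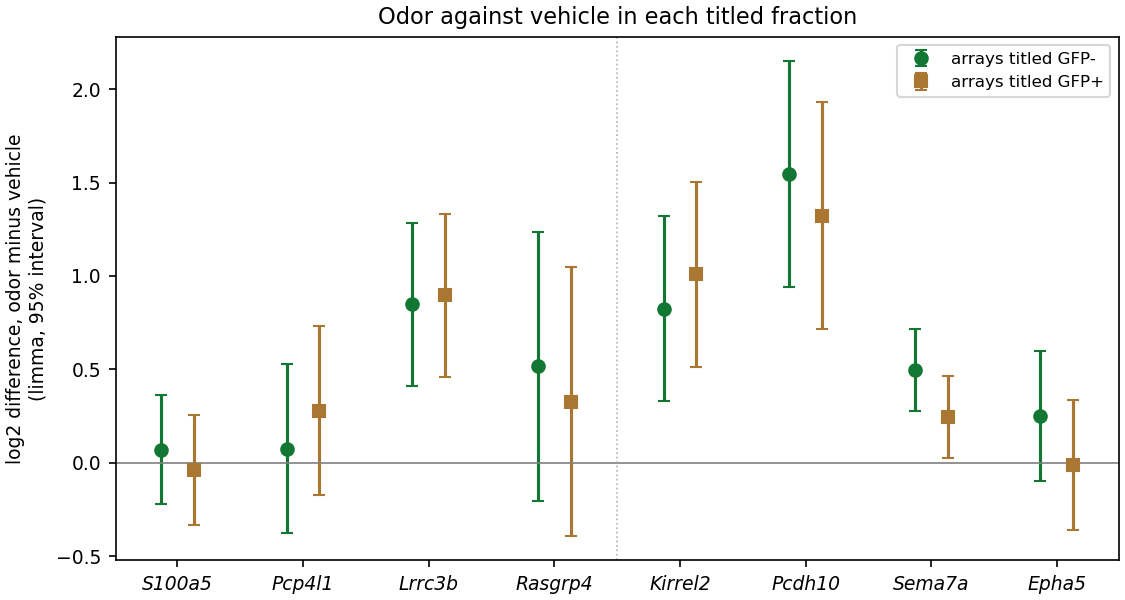
Odor minus vehicle on the log2 scale (y axis, limma estimate and 95% interval) in arrays titled GFP- (circles) and GFP+ (squares), for the 4 genes on the left of the dotted line and, on the right, the 4 other activity-linked genes that were lower in the arrays titled GFP+ in both treatments. Lrrc3b (0.85 and 0.90), Kirrel2 (0.83 and 1.01) and Pcdh10 (1.55 and 1.32) lie above 0 with their intervals in both fractions. Sema7a does so too, with smaller values, and S100a5 lies at 0.

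Other genes linked to the activity of these neurons shared the fraction difference in part. The list was not split by whether a gene rises or falls with activity. Of 9 measured, 4 were lower in the arrays titled GFP+ in both treatments and 5 were not lower in either. The 4 were Kirrel2, an adhesion molecule that sorts sensory axons (-1.10 ± 0.14 in vehicle and -0.92 ± 0.14 in odor), the protocadherin Pcdh10 (-1.04 ± 0.15 and -1.26 ± 0.15), the semaphorin Sema7a (-0.56 ± 0.10, lost with mature neuron centring, and -0.81 ± 0.10) and the ephrin receptor Epha5 (-0.86 ± 0.15 and -1.12 ± 0.15; limma, adjusted p at most 0.000754 for the 8 values). The median of the 9 was -0.12 in vehicle and -0.18 in odor pools, beside -0.14 and -0.15 over all genes. As the list mixes directions, neither its counts nor this median measure how far its genes follow S100a5. In the vehicle pools 1 of the 9 was higher. After odor, Pcdh10 was higher by 1.55 ± 0.29 in the arrays titled GFP- and 1.32 ± 0.29 in those titled GFP+, Kirrel2 by 0.83 ± 0.24 and 1.01 ± 0.24, and Sema7a by 0.50 ± 0.10 and 0.25 ± 0.10, none past the threshold (limma, adjusted p from 0.157 to 1.00). With the replicate block, Kirrel2 and Pcdh10 passed in the arrays titled GFP- (limma, adjusted p = 0.0250 and 0.00102), and Sema7a did not (0.132), this being the fraction in which the numbers were taken to pair the pools. Epha5 differed by 0.25 ± 0.17 and -0.01 ± 0.17 (adjusted p = 0.916 and 1.00). Pcdh10 was dim: its means ran from 7.77 to 10.36, and only in the odor arrays titled GFP- did all 4 exceed the control level.

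The genes directly on either side of S100a5 on its chromosome did not share its fraction difference. It lies on chromosome 3 between S100a4 and S100a6, and both of these were higher in the arrays titled GFP+, S100a4 by 2.13 ± 0.30 and 1.37 ± 0.30 and S100a6 by 2.16 ± 0.27 and 2.76 ± 0.27 (vehicle then odor; limma, adjusted p at most 0.00373). Both were dim: their group means in the arrays titled GFP+ ran from 7.72 to 8.38. There only 1 array, of S100a6 in odor, exceeded the 95th percentile of the negative controls. Of all 19505 genes, 2406 were higher and 2658 lower in vehicle, and 2502 and 2860 in odor. The nearby S100a3 was among the lower genes given below. S100a2, which also lies nearby, was measured but was not on the list of S100 relatives used here. Of the 15 relatives on that list, 6 were higher in vehicle and 6 in odor, and 3 and 2 were lower. The highest were the neutrophil alarmins S100a8 (8.79 ± 0.29 and 8.62 ± 0.29) and S100a9 (8.78 ± 0.17 and 8.71 ± 0.17), followed by S100a11 (6.98 ± 0.21 and 7.06 ± 0.21) and S100a10 (2.74 ± 0.30 and 2.18 ± 0.30), which was at or below the median of the negative controls in all arrays titled GFP-. Lower beside S100a5 were S100a3 (-0.78 ± 0.20, lost with mature neuron centring, and -1.07 ± 0.20), S100a13 (-0.74 ± 0.17 and -0.70 ± 0.17, both lost with that centring) and, in vehicle, S100a14 (-0.55 ± 0.18, adjusted p = 0.0422 and 0.0603 without the pool block). S100a14 was at or below the median of the negative controls in all 8 vehicle arrays, so no change is read from its value. Without vehicle pool 1 the S100a3 value in vehicle was -0.71 (adjusted p = 0.0672). S100a3 was dim, with group means from 5.54 to 6.65, and S100a13 reached 9.37. The list's median was 0.01 in vehicle and -0.09 in odor.

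Markers of neutrophils, which include S100a8 and S100a9, were higher in the same arrays. All 12 were higher in the arrays titled GFP+, and their summed log2 signal ran from 18.71 to 20.15 there and from 10.38 to 12.19 in the arrays titled GFP-. Camp and Mmp9 were at or below the median of the negative controls in all arrays titled GFP-. The mature neuron genes, 18 in number, had summed log2 signals of 21.29 to 21.42 in the arrays titled GFP+ and 21.50 to 21.55 in those titled GFP-. Of these 18 genes, 10 were lower in the arrays titled GFP+ in vehicle and 11 in odor, beside 13.6% and 14.7% of all genes. None of the 18 was higher, and the medians were -0.32 and -0.29. After centring on those neuron genes, the fraction differences of these 3 were -0.92, -1.78 and -1.38 in vehicle and -1.06, -1.61 and -1.36 in odor, all past the threshold. The part of the neutrophil RNA in the differences of the S100 relatives was not tested.

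Pcp4, the closest relative of Pcp4l1, was at or below the median of the negative controls in all 16 arrays, with means from 3.95 to 4.56, so no change is read from its values of -0.07 ± 0.19 in vehicle (adjusted p = 0.816) and -0.61 ± 0.19 in odor pools (limma, adjusted p = 0.0315). Calmodulin itself was bright: Calm2 differed by -0.08 ± 0.04 and -0.01 ± 0.04 and Calm3 by -0.14 ± 0.06 and 0.03 ± 0.06 (adjusted p from 0.120 to 0.935). Among all 19505 genes, 2406 were higher and 2658 lower in vehicle, and 2502 and 2860 in odor. The list of calmodulin, its binding peptides and the enzymes it drives had 21 measured genes. Of these, 6 were higher in either treatment, and 2 were lower in vehicle and 5 in odor, around medians of 0.02 and 0.03. Higher in both were Gap43, a growth-cone protein of immature neurons (2.00 ± 0.17 and 1.93 ± 0.17), and Rcan2, an inhibitor of calcineurin (2.92 ± 0.20 and 2.13 ± 0.20), which was at or below the median of the negative controls in the vehicle arrays titled GFP-. Camk2b and the bright calcineurin genes Ppp3ca and Ppp3r1 were also higher in both. In odor, Ppp3ca averaged 15.41 in the arrays titled GFP+ and 14.63 in those titled GFP-, and Ppp3r1 averaged 15.26 and 14.52. Lower in both were the kinases Camk2a (-0.66 ± 0.14 and -0.50 ± 0.14) and Camk4 (-0.75 ± 0.21 and -0.64 ± 0.21), neither of which passed with the arrays centred on mature neuron genes. Camk4 was at or below the median of the negative controls in all arrays titled GFP+. In odor, Camk2a missed the threshold without pool 1 or 3 (adjusted p = 0.109 and 0.0954) and Camk4 without pool 1, 2 or 3 (0.0731, 0.105 and 0.196), and in vehicle Camk4 missed it without pool 4 (0.105).

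The relatives of Lrrc3b were near background. Lrrc3 differed by -0.24 ± 0.25 and 0.17 ± 0.25 and Lrrc3c by -0.24 ± 0.16 and 0.10 ± 0.16 (vehicle then odor; limma, adjusted p from 0.284 to 0.672), with group means of 3.44 to 3.84, below the lowest median of the negative controls. Lrrc3b was thus the only measured member of its family with a signal above the controls.

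The relatives of Rasgrp4 passed the test as higher in the arrays titled GFP+, but of these Rasgrp1 and Rasgrp3 were at or below the median of the negative controls in all arrays titled GFP-, and the means of Rasgrp3 in the arrays titled GFP+ lay below it as well, so the sizes for both are uncertain. Rasgrp1 differed by 2.43 ± 0.30 and 2.13 ± 0.30, Rasgrp2 by 1.22 ± 0.28 and 1.43 ± 0.28 and Rasgrp3 by 0.66 ± 0.22 and 0.77 ± 0.22 (limma, adjusted p at most 0.0431). The Rasgrp3 calls were lost after median or housekeeping centring and without single pools, among them vehicle pool 3 in vehicle (0.47, adjusted p = 0.200) and odor pool 1 in odor (0.68, 0.0930). Over all 19505 genes the counts were 2406 higher and 2658 lower in vehicle, and 2502 and 2860 in odor. Of the 10 measured RasGRP and Ras genes, 5 were higher and 1 lower in vehicle, and 6 and 2 in odor, with medians of 0.51 and 0.65. The small GTPases Rras (1.50 ± 0.29 and 1.58 ± 0.29) and Rap1b (1.46 ± 0.20 and 1.47 ± 0.20) were among the higher ones, and the kinase Braf was lower (-0.37 ± 0.09 and -0.35 ± 0.09, both lost with mature neuron centring, and in odor also without odor pool 3, at -0.26 with adjusted p = 0.0688). Of 12 mast cell markers, 5 were higher in the arrays titled GFP+ in either treatment, and their summed log2 signal ran from 11.06 to 13.40 there and from 7.80 to 8.16 in the arrays titled GFP-. Of the 5, Ms4a2 was at or below the median of the negative controls in all vehicle arrays, and Kit is also on the basal and progenitor list. Hdc was the brightest, with a mean of 11.73 in odor arrays titled GFP+, where the median of the sum was 12.23. The tryptases and chymases Tpsab1, Tpsb2, Cma1 and Mcpt4 were at or below the median of the negative controls in all 16 arrays. The part of mast cell RNA in the Rasgrp4 value was not tested.

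Among the wider calcium genes, the fall in the arrays titled GFP+ was shared by parts of the calcium entry and exit apparatus. Of 21 such genes, 8 were lower in vehicle and 6 in odor, beside 13.6% and 14.7% of all genes. The 21 held 3 and 2 higher genes, beside 2406 and 2502 of all 19505, and their medians were -0.25 and -0.24. Lower in both treatments were the sodium-calcium exchanger Slc8a1 (-1.26 ± 0.12 and -1.11 ± 0.12), the calcium-dependent phosphodiesterase Pde1c (-0.81 ± 0.09 and -0.80 ± 0.09) and the calcium-gated chloride channel Ano2 (-0.48 ± 0.06 and -0.47 ± 0.06), each past the threshold under the 4 other scalings as well. Pde1c and Ano2 also belong to the mature neuron genes counted above, so these lists overlap. Higher were the calcium pump Atp2a3 (3.71 ± 0.20 and 4.30 ± 0.20) and the inositol trisphosphate receptor Itpr2 (3.46 ± 0.18 and 3.02 ± 0.18). Of 22 other EF-hand sensors and buffers, 2 were higher in each treatment, and 2 were lower in vehicle and 6 in odor. In vehicle neither count exceeded the share over all genes. Calb2, the calcium buffer calretinin, was higher by 4.11 ± 0.13 and 4.20 ± 0.13, and Necab1 was lower by -1.04 ± 0.17 and -1.19 ± 0.17. In vehicle Slc8a1 reached the difference of S100a5 in size, and no gene of either list reached that of Lrrc3b or Pcp4l1 downward.

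Immediate early genes, which neurons and other cells switch on within minutes of a stimulus, lay the other way from S100a5. Of 20 measured, 14 were higher in the arrays titled GFP+ in vehicle and 16 in odor, none was lower, and the medians were 1.62 and 2.19, beside 2406 and 2502 higher genes among all 19505. Markers of other cells were higher in the same arrays: 12 of 12 neutrophil markers in each treatment, 12 and 11 of 12 macrophage markers, 9 of 10 sustentacular and 10 of 11 microvillar cell markers in each. Their part in the immediate early gene values was not tested.

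The splits of these lists depended on how the arrays were scaled, since scaling moved the median fraction difference of all genes in vehicle pools from -0.14 to -0.51 (median centring), -0.62 (housekeeping centring), -0.02 (cyclic loess) or 0.17 (mature neuron centring). In the vehicle pools median centring gave 6 higher and 6 lower S100 relatives, 4 and 9 of the calmodulin list, 2 and 16 of the other EF-hand genes and 2 and 14 of the calcium entry and exit genes. Mature neuron centring gave 7 and 0, 12 and 0, 4 and 1, and 6 and 3. For the other activity-linked genes the splits were 0 and 8, and 4 and 3, and for the RasGRP and Ras genes 4 and 2, and 7 and 0. Over all genes, the lower ones were 52.5% of the calls as deposited, 87.3% after median and 89.6% after housekeeping centring, 33.6% after cyclic loess and 14.2% after mature neuron centring. S100a5, Pcp4l1 and Lrrc3b were lower and past the threshold under all 5 scalings.

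By likeness of pattern over the 16 arrays, 2 of the genes resembled odorant receptors. The genes whose log2 signal correlated best with S100a5 were the receptors Olfr727 (r = 0.980), Olfr729 (0.975) and Olfr166 (0.969), and Pcp4l1 stood closest to Olfr320 (0.977), Olfr178 (0.968) and Olfr730 (0.967). S100a5 and Pcp4l1 correlated with each other at 0.967. Lrrc3b was most like Kcnmb3, a subunit of a calcium-gated potassium channel (0.975), the transcription factor Nfatc2 (0.961), which calcineurin activates, and Noct (0.960). Rasgrp4 had weaker likeness, to Polr3b (0.840), Pml (0.830) and Zfp960 (0.825). These values are descriptions over 16 arrays that share pools, fractions and treatments, and they rest mostly on the gap between the fractions.

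In deviations from the group means, no receptor was among the 3 genes most like any of the 4. Receptors did stand at rank 5 for S100a5 (Olfr1101, 0.853) and for Lrrc3b (Olfr1410, 0.861). S100a5 was then most like Ccpg1os (0.899), Mdh1b (0.897) and Hax1 (0.877), Pcp4l1 most like Tpi1 (0.920), Mroh8 (0.918) and Dyrk4 (0.895), and Lrrc3b most like AI987944 (0.931), Dlg4 (0.881) and Inpp5e (0.875). Rasgrp4 followed Lst1 (0.894), Mat1a (0.884) and Slc11a1 (0.881). S100a5 and Pcp4l1 still moved together from pool to pool (0.721), Lrrc3b less closely with either (0.516 and 0.561), and Rasgrp4 with S100a5 at 0.352. The olfactory marker protein Omp, which labels all mature sensory neurons, correlated with S100a5 at 0.587 in log2 signal.

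**Figure D4:**
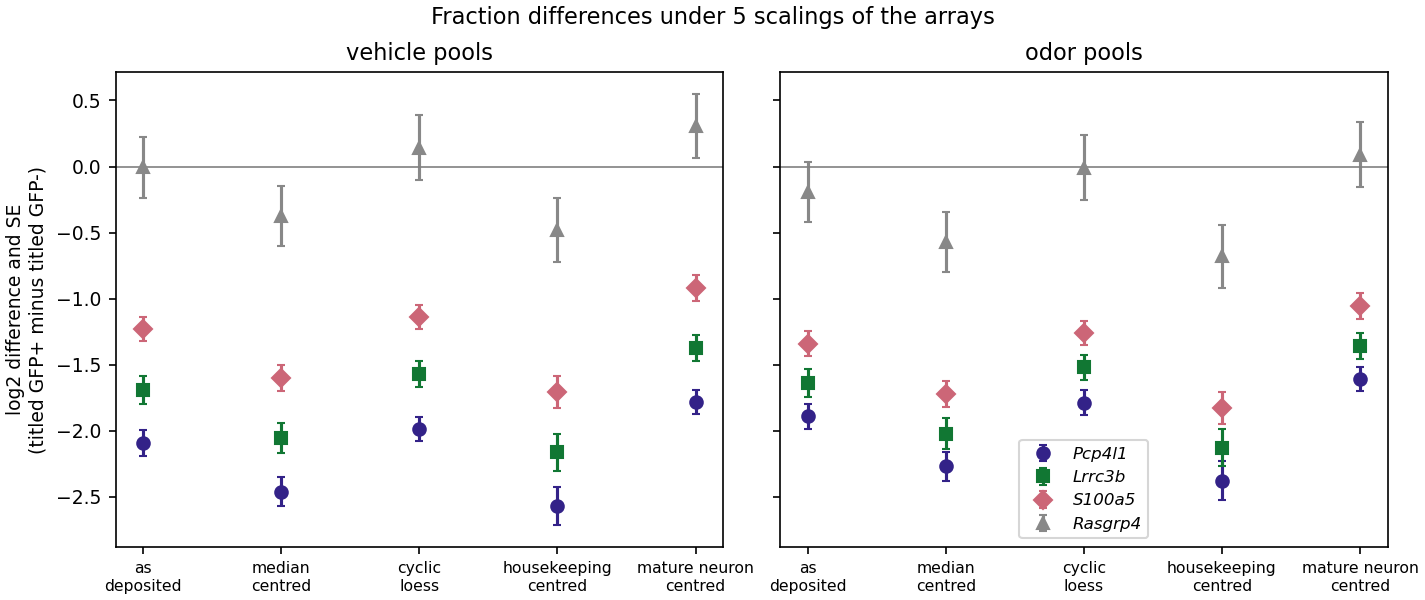
Log2 fraction difference and SE (y axis) of the 4 genes under 5 scalings of the arrays (x axis), in vehicle and odor pools. Pcp4l1, Lrrc3b and S100a5 stay below 0 in that order under each, between -2.57 and -0.92, and Rasgrp4 lies between -0.68 and 0.31.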

How the data were processed

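RNA of 16 sorted cell samples, 50 to 100 ng each, was labelled with biotin as cRNA and hybridised to Affymetrix arrays, per the labels' protocols. The table deposited by the authors holds log2 signals. Per the submitters' processing notes they come from Affymetrix Expression Console, whose version and settings for normalization and background were not given in the sources used here. A platform annotation gave 19572 features 1 gene symbol, and all of these matched RefSeq (GRCm38.p6) by gene number. The brightest feature stood for a gene, giving 19505 genes, dim ones included.

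Each test was a two-sided limma test (limma 3.58.1, R 4.3.3; lmFit, eBayes with trend), adjusted by Benjamini-Hochberg over 19505 genes, at a threshold of 0.05. For fraction differences each pool had a fixed term in a fit of 16 arrays (6 residual degrees of freedom). For odor against vehicle, group means were fitted and the pool entered as a random term (12 residual degrees of freedom). Replicates are separate pools of mice. The scripts were tested on simulated data. Same-numbered odor and vehicle pools correlated in deviations from group means at 0.198 to 0.279 in the arrays titled GFP- and at 0.0787 to 0.410, above 0.1 in 3 of 4 pairs, in those titled GFP+; whether a shared number means a shared exposure is not in the labels. Alternatives were other scalings, blocks, filters and feature rules, and leaving out each pool.

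The 4 genes and the 21 gene lists (245 of 280 genes measured) were chosen with earlier results of these data known. Named by rule were the 4 genes, Omp, Calm2, Calm3 and Pcp4, and defining genes of cell type lists. Any gene of the S100, Lrrc3 and RasGRP lists could be named, but not every S100 gene was. S100a2 was measured but was not on the S100 list. From other lists, genes past the threshold in both fraction comparisons were named, not strictly those with the largest differences. Also named were the 3 genes most like each of the 4 by either measure of correlation, among genes above the median of the negative controls. Promoter windows and coordinates are RefSeq's (GRCm38.p6); array design coordinates were not used.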

Additional observations from a re-analysis of the deposited data

Results flagged for a closer look

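In 3 of 24 sets of 4 values of the 4 genes, 1 value lay far from the other 3, by a gap of more than 0.829 of the whole range; chance flags about 1 set in 20. S100a5 in vehicle arrays titled GFP- was 16.23 in pool 4, beside 16.59, 16.62 and 16.60. The fraction difference of Pcp4l1 in odor pools was -1.57 in pool 2, beside -2.03, -2.00 and -1.98. Rasgrp4 in vehicle arrays titled GFP+ was 8.66 in pool 2, beside 9.66, 9.66 and 9.57.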

How the results depend on the processing

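Of 404 values of the 4 genes under the other settings tried, 382 kept their direction and their side of the threshold, 0 lost a call, 5 gained one and 17 changed sign. S100a5, Pcp4l1 and Lrrc3b kept both fraction calls under every alternative, with adjusted p at most 7.09e-05 (limma). Rasgrp4 in vehicle turned to 0.14 with cyclic loess and 0.31 with mature neuron centring, and ran from -0.27 to 0.18 with single pools left out. In odor it passed at -0.57 with median and -0.68 with housekeeping centring, turned to 0.090 with mature neuron centring, and ran from -0.35 to 0.083 with single pools left out. With single pools left out, the difference of the fraction differences ran from -0.19 to 0.0034 for S100a5, -0.040 to 0.16 for Lrrc3b and -0.37 to 0.088 for Rasgrp4, and odor minus vehicle from -0.17 to 0.082 (S100a5, titled GFP+), -0.022 to 0.12 (S100a5, titled GFP-) and -0.059 to 0.28 (Pcp4l1, titled GFP-). The Rasgrp4 values after median and housekeeping centring were the only calls among these, and the cause of the turns was not tested.

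With the replicate number as a block, Lrrc3b passed for odor minus vehicle in the arrays titled GFP+ (0.90, adjusted p = 0.0261, limma) and GFP- (0.85, 0.0311), and on the 8 arrays titled GFP- alone with the block (0.85, 0.0236); on the 8 titled GFP+ it did not (0.90, 0.210). The pairing changed no other call of the 4 genes. Kirrel2 and Pcdh10 also passed with it in the arrays titled GFP+ (1.01 and 1.32, adjusted p = 0.00576 and 0.00589, limma), and on the 8 arrays titled GFP+ alone Kirrel2 did (0.0357) and Pcdh10 did not (0.210). It called 12 genes of all in the arrays titled GFP+ and 14 in those titled GFP-, against 1 and 0. By the exact permutation test, added after the data were seen, Lrrc3b in the arrays titled GFP- (0.85) had p = 0.0286. The count of all genes past the threshold between fractions rose from 5064 to 14357 (median) and 15474 (housekeeping centring) in vehicle, and from 5362 to 14808 and 15747 in odor.

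The 4 pools per group and the unstated normalization limit all values, Rasgrp4 lies near the control signal, and the contradiction between titles and cell type field was not resolved.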
